A study of Mus musculus with 17 samples.

Results

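Testes of newborn mice that lacked both copies of osteocalcin (Ocn-/-) were compared with testes of newborn mice that kept 1 copy (Ocn+/-). The comparison takes the 3 libraries labelled Testes KO at P1 and the 3 libraries labelled Testes Het at P1, 6 of the 17 libraries in the series, and was chosen by label alone. All pups were males at postnatal day 1 of the 129/SvEv strain Ocn_GK, made by homologous recombination in embryonic stem cells. According to the study's text, Ocn+/- and Ocn-/- pups all had Ocn-/- mothers, so neither group received osteocalcin from its mother, and only the Ocn+/- pups could make their own. The other testes of the series, 2 libraries from WT pups of WT mothers, entered the fit for its estimate of spread and are given as a further level, and forebrains of the same 2 mutant genotypes (hippocampus in the labels, 6 libraries) serve for a comparison of tissues. Neither the fathers nor the litters are given in the sources used here, so genotype and litter cannot be told apart. The study gives its replicates as mice.

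Osteocalcin is a small protein secreted by osteoblasts that also circulates as a hormone, and in mice it is encoded by Bglap and Bglap2, next to the related gene Bglap3. In the testis it acts on Leydig cells through the receptor Gprc6a and raises the expression of enzymes that make testosterone, while Gpr158 and Gpr37 are its receptors in the nervous system. A testis at birth holds seminiferous cords of Sertoli cells and gonocytes inside a layer of peritubular cells, fetal Leydig cells and stroma between the cords, and a capsule covered by mesothelium, with the rete testis and epididymis attached.

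The testis libraries held 7302376 to 8288986 deposited counts, with 7858698 to 8153189 in Ocn-/- and 7302376 to 7848303 in Ocn+/-, and 21695 to 22551 genes with a count. Counts are given below as CPM (counts scaled to a common library size) after TMM normalization, and differences as log2 of Ocn-/- over Ocn+/-, from edgeR's quasi-likelihood test. Markers of the labelled tissue were present in every library. The summed level of 15 Sertoli cell genes was 3520 to 4830 CPM in Ocn-/- and 3240 to 3990 CPM in Ocn+/-, that of 13 Leydig cell genes 1460 to 1870 CPM and 1340 to 2120 CPM, and that of 15 germ cell genes 467 to 494 CPM and 443 to 518 CPM. Libraries Ocn+/- 1 and Ocn+/- 3 stood apart from the other 6 testes at genes with near-identical copies. They held 0 and 0 counts of Gm28439, all of whose 50-base windows also occur in other genes and most often in mt-Nd4, against 764 to 5015 counts in the other testes, and 686 and 699 counts of Rpl34 against 1201 to 1509. Values without them are therefore given for many of the lists and genes below. Such a fit leaves Ocn+/- 2 alone in its group and assumes that it varies like the other groups.

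The targeted gene could not check the labels in this tissue. Bglap (chromosome 3, 88290808 to 88291771, GRCm39) had 0 counts in each of the 3 Ocn-/- testes, 0, 2 and 0 counts in Ocn+/- and 0 and 0 in WT, and Bglap2 (88285043 to 88286060) had 0 counts in all 8. Those zeros allow up to 3 counts per library. Bglap3 (88275923 to 88280052) had 14, 10 and 14 counts in Ocn-/- and 5, 17 and 14 in Ocn+/-, and the groups overlapped. Of the receptors, Gprc6a had 0 to 2 counts and Gpr158 0 to 3 counts in any testis, too few for a test. Gpr37 was expressed, at 72.7, 89.0 and 102 CPM in Ocn-/- and 89.4, 67.5 and 76.2 CPM in Ocn+/-. Its groups overlapped too, with a log2 difference of 0.18 (SE 0.138, unadjusted p = 0.21 by edgeR).

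No gene of the 16361 tested passed an adjusted p of 0.05 in edgeR's quasi-likelihood test, a share of 0%, and the smallest adjusted p was 0.0691. At an unadjusted p under 0.05 there were 883 genes higher in Ocn-/- (5.4% of the genes tested) and 998 lower (6.1%), together 1881 or 11.5%. In 1230 genes (7.52%) all 3 Ocn-/- libraries lay above all 3 Ocn+/- libraries, and in 1312 (8.02%) all 3 lay below. Other tools made calls from the same counts. DESeq2 called 70 genes, 34 higher and 36 lower, edgeR's likelihood ratio test called 59, 14 higher and 45 lower, and limma voom called 0, and all 70 and all 59 had an unadjusted p under 0.05 in the quasi-likelihood test. Differences were mostly small. The median size over all genes was 0.18 on the log2 scale, 1221 of the 1881 genes differed by less than 0.5, and 189 of them by more than 1. For 12274 genes (75%) the 95% interval of the difference stayed within 2-fold in either direction, and among the 10907 genes with a mean of at least 10 CPM this held for 96.3%.

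**Figure D1:**
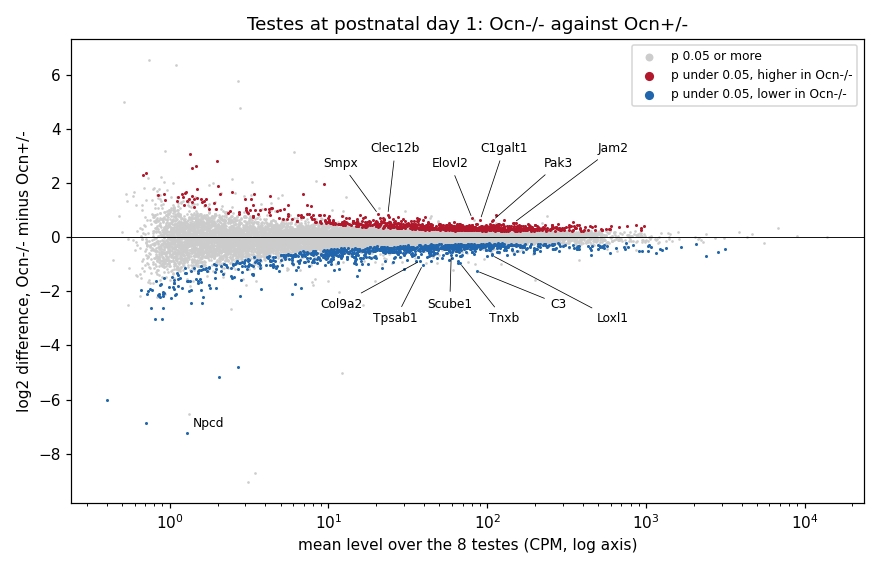
Log2 difference of each of the 16361 tested genes, Ocn-/- minus Ocn+/- (vertical axis), against its mean CPM over the 8 testes (log axis). Red and blue points are the 883 higher and 998 lower genes at an unadjusted p under 0.05, and no gene passed after adjustment. The named genes are those with the smallest p in each direction.

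The difference between the genotypes followed the base composition of the transcripts. GC content is the percentage of G and C bases in a gene's longest transcript, and the tested genes were split by it into 5 GC bins of equal size. The median log2 difference was 0.15 in the bin with the lowest GC (30.8% to 43.7%), then 0.085, 0.005 and −0.102, and −0.204 in the bin with the highest GC (54.8% to 80.6%). Of the genes at an unadjusted p under 0.05, the lowest bin held 455 higher and 29 lower, and the highest bin 11 higher and 563 lower. A pair of stretches per direction give examples of base composition. Each is the middle 90 bases of the longest coding exon, 5′ to 3′ on the gene's own strand in GRCm39. G and C are in capitals. C1galt1 (chr6:7866664-7866753, plus strand) and Pak3 (chrX:142557987-142558076, plus strand) are the genes with the smallest p among those higher in Ocn-/-, and Loxl1 (chr9:58219524-58219613, minus strand) and Tpsab1 (chr17:25563712-25563801, minus strand) among those lower with at least 10 CPM.
C1galt1: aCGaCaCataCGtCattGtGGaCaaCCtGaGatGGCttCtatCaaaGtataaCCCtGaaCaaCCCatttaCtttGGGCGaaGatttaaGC
Pak3: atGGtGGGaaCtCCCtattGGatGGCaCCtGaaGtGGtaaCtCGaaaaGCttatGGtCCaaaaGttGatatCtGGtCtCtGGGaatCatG
Loxl1: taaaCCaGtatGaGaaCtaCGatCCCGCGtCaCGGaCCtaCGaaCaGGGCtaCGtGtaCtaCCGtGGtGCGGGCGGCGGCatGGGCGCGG
Tpsab1: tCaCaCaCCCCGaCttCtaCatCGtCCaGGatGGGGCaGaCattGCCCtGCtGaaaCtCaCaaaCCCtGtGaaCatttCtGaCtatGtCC
G and C made up 42.2% and 45.6% of the first pair and 62.2% and 51.1% of the second. In the longest transcripts, which set the bins, they made up 37.9% and 39.8%, and 60.9% and 54.9%.

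In the bin with the highest GC, all 3 Ocn+/- libraries lay above all 3 Ocn-/- libraries. Their median level lay above the mean of the 8 testes by 0.188 and 0.21 in Ocn+/- 1 and Ocn+/- 3, by 0.071 in Ocn+/- 2 and by 0.021 and 0.036 in Ocn-/- 1 and Ocn-/- 3, and below it at −0.209 in Ocn-/- 2. Ocn-/- 2 was thus far from its own group, while Ocn+/- 2 was close to Ocn-/- 1 and Ocn-/- 3, and the WT testes lay at −0.148 and −0.105. Without Ocn+/- 1 and Ocn+/- 3 the contrast ran from 0.088 at the lowest GC to −0.098 at the highest. Weighted by counts, the GC content was 48.35%, 47.79% and 48.31% in Ocn-/- and 48.75%, 48.3% and 48.81% in Ocn+/-. In forebrain the same contrast ran from 0.03 in the lowest bin to −0.027 in the highest. An offset for each library's own curve over GC, chosen after seeing the data, brought the medians of the bins to between −0.011 and 0.006. The curves were fitted to these same counts, so flat medians follow from how the offset is made. With it 645 genes were higher (3.94%) and 614 lower (3.75%) at an unadjusted p under 0.05, and 0 passed after adjustment. Both fits had 855 genes in common in the same direction, 45.5% of the 1881. The part of base composition in the results below was not tested, and values with this offset are given for many of them.

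**Figure D2:**
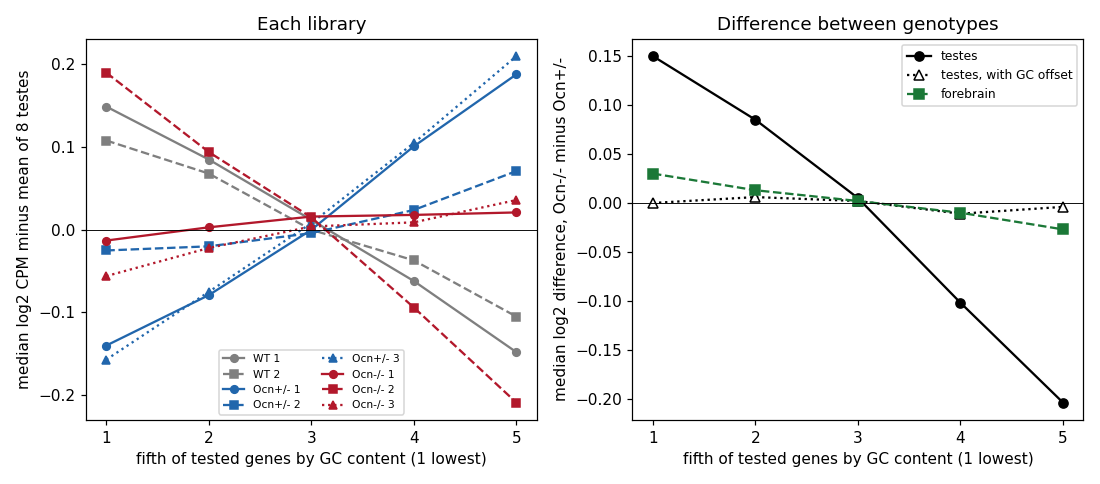
Left, median log2 CPM of the genes in each GC bin, minus their mean over the 8 testes, for each library. Right, median log2 difference of Ocn-/- minus Ocn+/- in each bin, which ran from 0.15 to −0.204 in testes, from 0.03 to −0.027 in forebrain, and stayed between −0.011 and 0.006 in testes with the GC offset. The offset was fitted to these same counts, so its flat line follows from how it is made.

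The 12 genes with the smallest p among those higher in Ocn-/- without overlap differed by 0.45 to 0.85 on the log2 scale, with adjusted p between 0.141 and 0.195. C1galt1, the enzyme that starts the core of mucin-type O-glycans, stood at 123, 140 and 103 CPM in Ocn-/- and 85.8, 72.7 and 75.5 CPM in Ocn+/-. Its difference was 0.64 (SE 0.13, adjusted p = 0.141), and the WT testes lay at 68.4 and 56.0 CPM, below both. Pak3, a kinase of the p21-activated family, stood at 123, 140 and 108 CPM against 90.5, 80.3 and 69.3 CPM, with a difference of 0.63 (SE 0.13). Here WT, at 142 and 119 CPM, was level with Ocn-/-. Elovl2, which elongates polyunsaturated fatty acids, had 98.5, 112 and 110 CPM against 85.7, 54.6 and 58.6 CPM, a difference of 0.69 (SE 0.149). Within Ocn+/- the first library was the highest. Clec12b, a C-type lectin receptor, had 28.7, 32.2 and 34.0 CPM against 21.5, 15.02 and 16.8 CPM, a difference of 0.83 (SE 0.174).

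The other 8 were Jam2, a junctional adhesion molecule, Smpx, a small muscle protein, Pde2a, a phosphodiesterase of cyclic nucleotides, Kdm7a, a histone demethylase, Defb19, a beta-defensin made by Sertoli cells, Lrrc58, Plekha8, a glycolipid transfer protein, and Slc5a3, a myo-inositol transporter. Jam2 had 163, 174 and 158 CPM in Ocn-/- and 129, 110 and 103 CPM in Ocn+/-. Defb19 had 118, 117 and 143 CPM against 88.6, 91.4 and 72.7 CPM. Pde2a had 27.0, 28.3 and 36.0 CPM against 17.3, 19.4 and 18.3 CPM, but 76.4% of the 50-base windows of its transcript are also in the overlapping gene Gm45837, so that its level depends on how reads were divided. Of the 12, 10 lay in the 2 lowest GC bins. All 12 kept an unadjusted p under 0.05 with the GC offset, at 0.34 to 0.87. They were picked by p from these same counts, so this is no separate support, and 0 of them passed after adjustment.

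The 12 genes with the smallest p among those lower in Ocn-/- without overlap differed by −7.23 to −0.51, with adjusted p between 0.0691 and 0.141. The −7.23 is a fitted value for Npcd, which had 0 counts in every Ocn-/- testis, and a bound for it follows further on. Loxl1, a lysyl oxidase that crosslinks elastin, stood at 87.1, 86.3 and 78.5 CPM in Ocn-/- and 131, 124 and 146 CPM in Ocn+/-, a difference of −0.67 (SE 0.109, adjusted p = 0.0691). WT lay between, at 95.9 and 106 CPM, as it did by the means for 11 of these 12 genes and for 503 of the 998 lower genes. Tnxb, the matrix protein tenascin-X, stood at 58.5, 43.7 and 36.4 CPM against 88.9, 87.1 and 93.2 CPM, a difference of −0.96 (SE 0.157, adjusted p = 0.0691), and 6.44% of its windows are shared, most with the pseudogene Tnxa. The Ocn+/- libraries were close together and the Ocn-/- libraries spread more. C3, the central complement protein, stood at 46.5, 68.8 and 45.5 CPM against 118, 105 and 159 CPM, a difference of −1.25 (SE 0.198). Tpsab1, a tryptase of mast cells, stood at 31.1, 23.2 and 31.2 CPM against 44.5, 69.8 and 59.4 CPM, a difference of −1.02 (SE 0.169, adjusted p = 0.0691), with WT at 28.1 and 27.1 CPM.

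Col9a2, a chain of collagen IX, had 35.6, 26.0 and 23.5 CPM in Ocn-/- and 48.9, 48.5 and 58.7 CPM in Ocn+/-. Lama5, a laminin chain of basement membranes, had 58.7, 48.7 and 48.7 CPM against 73.6, 87.1 and 92.1 CPM. Ltbp3, which binds latent TGF-beta, had 179, 180 and 183 CPM against 264, 240 and 266 CPM, so that each group was tight around its own level. Scube1, Stab1, a scavenger receptor, Msln and Palm, a membrane protein, made up the remainder with Npcd. Of the 12, 10 lay in the highest GC bin and 0 in the 2 lowest. With the GC offset all 12 kept an unadjusted p under 0.05, and Loxl1 moved to −0.38, Tnxb to −0.67, C3 to −1.12, Tpsab1 to −0.89 and Ltbp3 to −0.28. These 12 too were picked by p from the same counts, so this is no separate support, and 0 of them passed after adjustment. Without Ocn+/- 1 and Ocn+/- 3, Loxl1 was at −0.56, Tnxb at −0.91, C3 at −0.97 and Tpsab1 at −1.29.

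**Figure D3:**
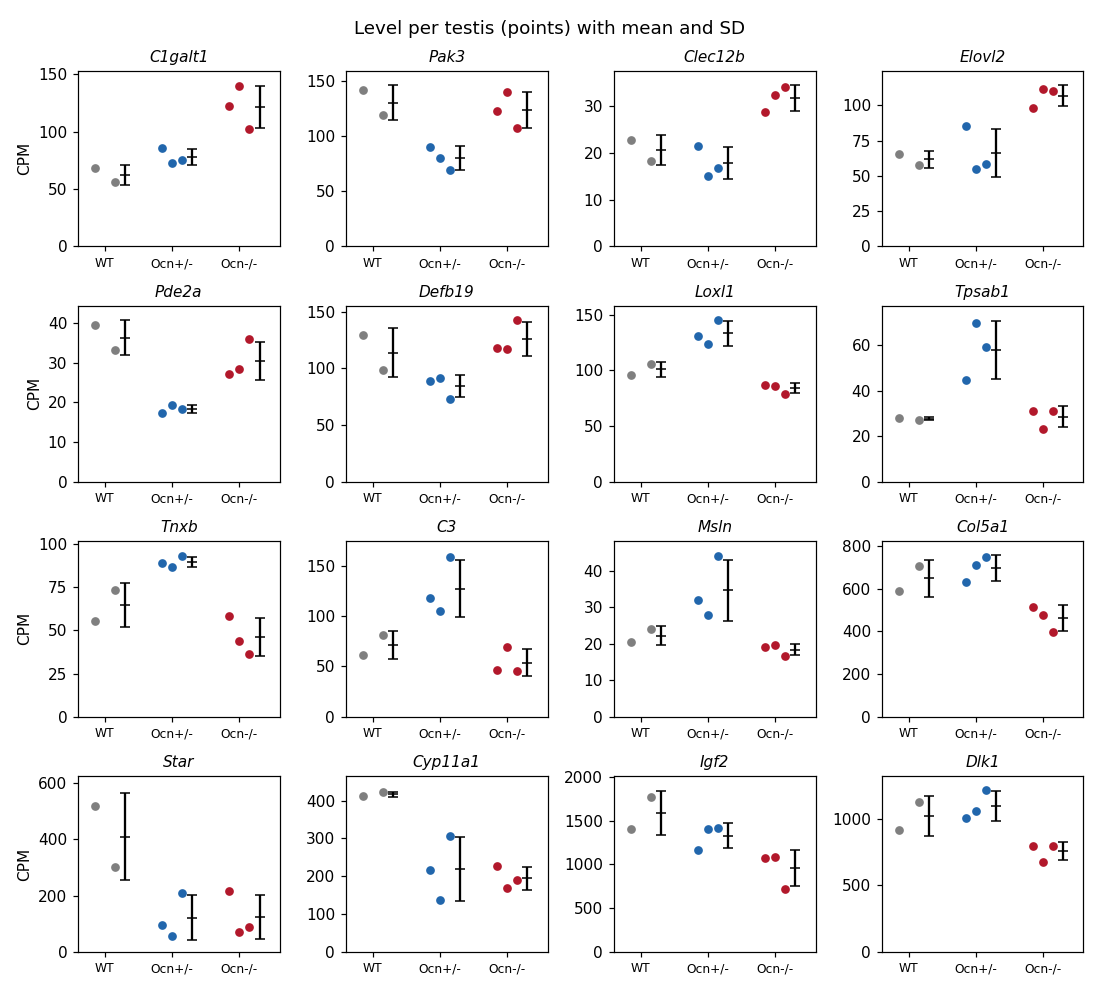
CPM of 16 genes in each testis (points), with mean and SD at the right of each group. The first 6 genes are higher in all 3 Ocn-/- libraries than in all 3 Ocn+/- libraries, the next 6 and Igf2 and Dlk1 are lower, and in Star and Cyp11a1 the 2 mutant groups overlap while both WT testes lie above them.

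Some large fold changes were in genes with few counts or with copies. Npcd, a read-through gene of chromosome 15, had 0, 0 and 0 counts in Ocn-/- and 8, 19 and 27 counts in Ocn+/-, against 11 and 13 in WT, so it was at least 6.42-fold lower in Ocn-/- when each empty library is set to 3 counts. However, 96.7% of its windows are shared, most often with Cbx6, and in forebrain it had 36, 27 and 56 counts in Ocn-/- and 27, 70 and 50 in Ocn+/-. Zfp1009 had 108 and 83 counts in Ocn+/- 2 and Ocn+/- 3 and 0 in the 6 other testes, and 86.9% of its windows are shared. Among genes of at least 2 CPM with no overlap, Ebf2, a transcription factor of mesenchymal cells, was at 2.61, 4.21 and 0.885 CPM in Ocn-/- and 5.45, 11.7 and 11.3 CPM in Ocn+/-, a difference of −1.88 (SE 0.439). Skap1, an adaptor protein of T cells, was at 0.593, 0.382 and 0.885 CPM against 1.20, 2.78 and 3.44 CPM. Hoxaas2, Gm20427 and 2700033N17Rik were lower by −2.43, −2.18 and −1.87. Of the windows of Gm20427, 93.4% are shared, most often with Slc39a7, so its level depends on how reads were divided. For 2700033N17Rik, 96.6% of the windows lie in other genes on the opposite strand, and no strand setting is given. In the other direction, Cacna1s, the calcium channel of skeletal muscle, was at 10.3, 8.16 and 17.6 CPM against 3.59, 5.81 and 6.60 CPM, a difference of 1.17 (SE 0.311), and Zfp582 at 4.86, 4.33 and 4.04 CPM against 2.39, 1.26 and 1.38 CPM, a difference of 1.39 (SE 0.376). Gm43079, Bc1, Gm48597 and Slc35g2 were higher by 2.82, 2.64, 1.39 and 1.19. Gm43079 shares 93.7% of its windows, most often with Acad9, and 100% of those of Gm48597 lie on the opposite strand of other genes, most often Gcnt4. Bc1 had 0 counts in both Ocn+/- 1 and Ocn+/- 3, and without these libraries Bc1, Gm43079, Gm48597, Slc35g2 and Hoxaas2 had an unadjusted p above 0.05. Of genes called by an alternative, Cst12, a cystatin, was at 99.5, 168 and 134 CPM in Ocn-/- and 81.6, 72.7 and 76.2 CPM in Ocn+/-, and Fndc1, a fibronectin domain protein, at 23.2, 21.5 and 8.97 CPM against 32.4, 50.9 and 40.0 CPM, both without overlap.

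Leydig cell genes, the testicular target of osteocalcin, showed no common direction. Of 11 tested, 6 were higher and 5 lower in Ocn-/-, with a median of 0.04 against −0.0132 over all genes, and 1, a higher one, had an unadjusted p under 0.05, against 5.4% of all genes. Star, which carries cholesterol into mitochondria, stood at 215, 71.1 and 89.3 CPM in Ocn-/- and 96.4, 56.0 and 210 CPM in Ocn+/-. One library of each group was thus more than double its companions, and the 95% interval of the difference, −1.68 to 1.79, was too wide to place it. Cyp17a1, an enzyme of androgen synthesis, varied in the same way, at 189, 88.8 and 86.8 CPM against 123, 36.5 and 303 CPM. Cyp11a1, which cleaves the cholesterol side chain, had 228, 168 and 189 CPM against 217, 136 and 306 CPM, and an interval of −0.81 to 0.46. Lhcgr, the receptor of luteinizing hormone, had 37.0, 24.1 and 27.9 CPM against 31.0, 24.1 and 31.6 CPM, and an interval of −0.32 to 0.40. For Nr5a1, the transcription factor of steroidogenic cells, the interval was −0.18 to 0.36, and for Hsd3b1 it was −0.0047 to 0.54. With the GC offset Nr5a1 was at 0.29, with an unadjusted p under 0.05. The list then had 2 higher and 0 lower at that threshold, against 3.94% and 3.75% of all genes, and a median of 0.01. All of Star, Cyp11a1, Cyp17a1 and Lhcgr were higher in both WT testes than in any mutant testis. These values rested on Ocn+/- 1 and Ocn+/- 3. Without them the Leydig cell median was 0.30, and the differences of Cyp11a1, Cyp17a1 and Star were 0.52, 1.74 and 1.16, set against the single library Ocn+/- 2. Of these Cyp11a1 had an unadjusted p under 0.05, with the spread taken from the other groups. For Star, 59.4% of the windows lie in Ash2l on the opposite strand, and without a stated strand setting their reads cannot be told apart.

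Of 21 steroidogenesis genes tested, 3 were higher and 1 lower at an unadjusted p under 0.05, against 5.4% and 6.1% of all genes, with a median of −0.09. Hsd17b1, a 17-beta-hydroxysteroid dehydrogenase, was at 117, 95.2 and 120 CPM in Ocn-/- and 97.1, 76.1 and 74.7 CPM in Ocn+/-, a difference of 0.42 (SE 0.135) with a small overlap. Cyb5a, cytochrome b5, which assists Cyp17a1, was at 72.3, 90.2 and 69.9 CPM against 54.3, 65.0 and 58.4 CPM, a difference of 0.39 (SE 0.124). Creb1 and Nr4a1 differed by 0.40 and −0.47. Without Ocn+/- 1 and Ocn+/- 3, Cyb5a was at 0.26, Creb1 at 0.27 and Nr4a1 at −0.31, each with an unadjusted p above 0.05. The GC offset gave 4 higher and 0 lower, against 3.94% and 3.75% of all genes, and a median of 0.01. Without Ocn+/- 1 and Ocn+/- 3 the median was 0.26.

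The 15 Sertoli cell genes had a median of 0.07, with 12 above 0 and 2 higher at an unadjusted p under 0.05, against 5.4% of all genes. Leaving out 1 library moved the median between −0.02, without Ocn-/- 3, and 0.18, without Ocn-/- 1 or Ocn+/- 1, and it was −0.01 without Ocn+/- 2. Inhbb, a subunit of inhibin B, was at 271, 266 and 341 CPM in Ocn-/- and 257, 212 and 217 CPM in Ocn+/-, a difference of 0.36 (SE 0.123), and Fshr, the receptor of follicle-stimulating hormone, at 38.7, 44.0 and 50.8 CPM against 35.6, 35.2 and 34.5 CPM, a difference of 0.34 (SE 0.14). Neither gene's groups overlapped. After the GC offset, Inhbb was at 0.63, Amh, anti-Müllerian hormone, moved from 0.06 to 0.42, and the median of the list was 0.22 with 4 higher, against 3.94% of all genes. Without Ocn+/- 1 and Ocn+/- 3 it was 0.38. Inhba, of the hormone list, was at 276, 326 and 280 CPM against 218, 270 and 187 CPM, with a difference of 0.39 that was 0.25 after the GC offset and 0.12 without Ocn+/- 1 and Ocn+/- 3, where the unadjusted p was above 0.05. Fshr stayed at 0.34 in that fit, also with an unadjusted p above 0.05. Germ cell genes had a median of 0.04 over 13 genes. Ddx4 and Dazl, markers of gonocytes, differed by 0.06 and 0.04, and of the list Mageb4, which shares 54.2% of its windows with other genes, had an unadjusted p under 0.05, at 0.41, which was 0.34 after the GC offset and 0.06 without Ocn+/- 1 and Ocn+/- 3, both with an unadjusted p above 0.05.

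The lists with the lowest medians were those of the covering and duct epithelia and of immune cells. In bulk tissue, fewer cells of a type and less RNA per cell cannot be told apart. All 7 tested mesothelium genes were lower in Ocn-/-, 4 of them at an unadjusted p under 0.05, against 6.1% of all genes, with a median of −0.55. Msln, mesothelin, was at 19.1, 19.5 and 16.6 CPM in Ocn-/- and 32.0, 27.9 and 44.0 CPM in Ocn+/-, and Upk3b, a uroplakin of mesothelium, at 51.6, 43.1 and 31.5 CPM against 67.8, 65.0 and 92.6 CPM. The summed level of the list was 306 to 325 CPM in Ocn-/- and 363 to 435 CPM in Ocn+/-, without overlap, and the WT testes were at 351 CPM, between the groups, and at 366 CPM, within the range of Ocn+/-. More than any other member Wt1, which Sertoli cells also express, makes up this sum, and Wt1 differed by −0.06. After the GC offset the median was −0.68 and 5 genes had an unadjusted p under 0.05, against 3.75% of all genes.

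All 11 tested genes of the Wolffian duct, epididymis and rete epithelium were lower too, with a median of −0.68. In 6 of them the unadjusted p was under 0.05, against 6.1% of all genes, and in 7 the groups did not overlap, against 8.02%. Pax2, a transcription factor of these ducts, was at 2.25, 2.17 and 1.26 CPM against 3.99, 4.67 and 5.36 CPM, a difference of −1.29 (SE 0.381). Krt18, a keratin of simple epithelia, was at 20.8, 19.9 and 19.1 CPM against 26.3, 32.7 and 40.4 CPM, a difference of −0.73 (SE 0.196). The list summed to 128 to 208 CPM in Ocn-/- and 239 to 300 CPM in Ocn+/-, with WT at 187 and 274 CPM. Lcn8, a marker of the mature epididymis, had 0 counts in all testes. After the GC offset, 4 genes were lower at an unadjusted p under 0.05, against 3.75% of all genes, and the median was −0.52. Without the offset, leaving out 1 library moved the median between −0.79 and −0.36. How much epididymis and capsule each sample held is not given in the sources used here, and its part in these values was not tested.

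Of 11 macrophage genes, 10 were lower and 5 had an unadjusted p under 0.05, against 6.1% of all genes, with a median of −0.55. Csf1r, the receptor that macrophages depend on, was at 24.9, 23.8 and 18.3 CPM in Ocn-/- and 28.2, 39.2 and 31.4 CPM in Ocn+/-, without overlap. Cx3cr1, the fractalkine receptor, was at 17.4, 14.5 and 7.84 CPM against 16.7, 23.7 and 19.4 CPM, with overlap. The list's sum overlapped as well, at 87.7 to 182 CPM against 165 to 208 CPM, and Ocn-/- 3 was the lowest. The GC offset gave 5 genes lower at an unadjusted p under 0.05, against 3.75% of all genes, and a median of −0.46. Without the offset, leaving out 1 library moved the macrophage median between −0.65 and −0.32. Mast cell genes were listed only after Tpsab1 had been seen, so their count is a description. Of 10 tested, 9 were lower and 5 had an unadjusted p under 0.05, against the same 6.1%, and the sum was 135 to 170 CPM in Ocn-/- against 198 to 277 CPM in Ocn+/-, with WT at 199 and 216 CPM. Beside Tpsab1, the tryptase Tpsb2 differed by −0.90 and the chymase Mcpt4 by −0.81, and with the GC offset these were −0.72 and −0.81. The 6 neutrophil genes had a median of −0.75 with 0 at an unadjusted p under 0.05, on sums of 14.8 to 24.9 CPM against 29.0 to 46.3 CPM that did not overlap, and WT at 87.5 and 79.2 CPM. Of the neutrophil sums Lcn2, lipocalin 2, made up 13.1 CPM in Ocn-/- and 26.2 CPM in Ocn+/- by the means, and the median was −0.41 without Ocn+/- 3 and −0.42 without Ocn-/- 1. Erythroid genes, the globins among them, ranged over 1320 to 2520 CPM in Ocn-/- and 866 to 3940 CPM in Ocn+/-. All 12 endothelial genes were lower, with a median of −0.19 and sums of 450 to 467 CPM against 474 to 546 CPM. The median was −0.31 without Ocn-/- 2, −0.30 without Ocn+/- 1 and −0.11 without Ocn+/- 2. Of these Egfl7 was at 18.6, 15.6 and 15.4 CPM against 26.3, 22.6 and 26.3 CPM, and Tie1 at 21.9, 16.3 and 18.7 CPM against 28.2, 25.7 and 29.6 CPM. The endothelial median was −0.17 and that of neutrophils −0.67 after the GC offset. Without Ocn+/- 1 and Ocn+/- 3 the medians were −0.62 for mesothelium, −0.71 for duct epithelium, −0.69 for macrophages, −0.84 for mast cells and −0.38 for endothelial cells, and the erythroid median went from −0.32 to 1.01. Adrenal cortex genes had a median of −0.51 over 3 genes, skeletal muscle −0.22 over 7, adipocytes −0.26 over 4, Schwann cells and neurons 0.01 over 5, and peritubular myoid and smooth muscle cells −0.05 over 12, with 0, 0, 0, 1 and 2 genes at an unadjusted p under 0.05. The adrenal cortex median turned to 0.29 without Ocn+/- 1 and Ocn+/- 3, and Egfl7 and Tie1 then had an unadjusted p above 0.05.

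**Figure D4:**
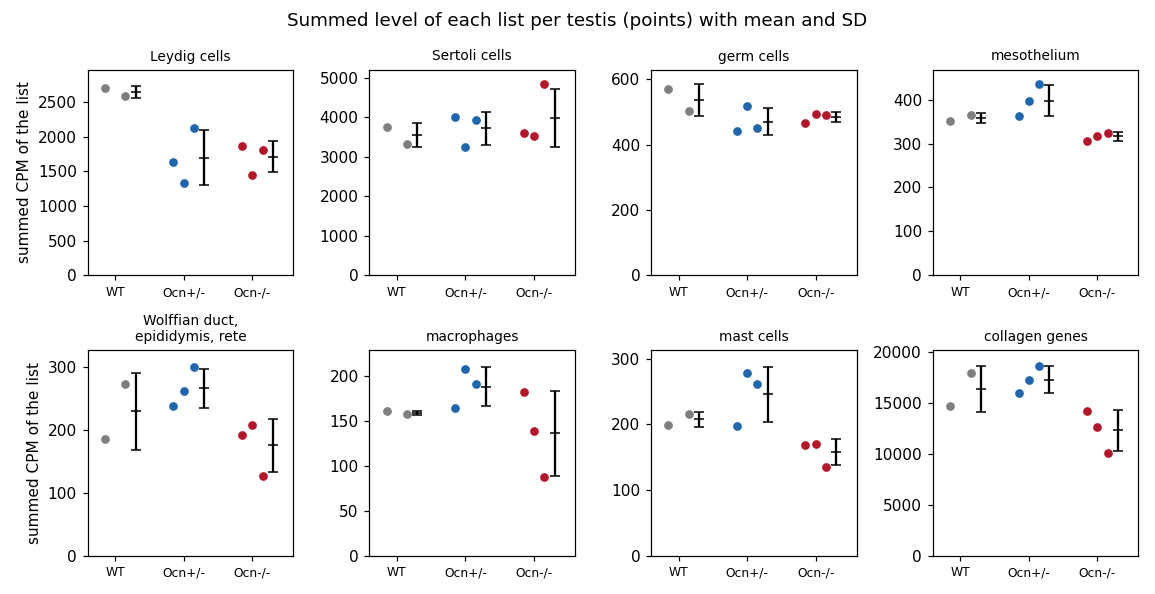
Summed CPM of 8 gene lists in each testis (points), with mean and SD. The sums of mesothelium, duct epithelium, mast cell and collagen genes are lower in all 3 Ocn-/- libraries than in all 3 Ocn+/- libraries, and those of Leydig, Sertoli, germ cell and macrophage genes overlap.

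Collagen genes were lower in Ocn-/- in 15 of 17 cases, with a median of −0.45, and 10 of them had an unadjusted p under 0.05, against 6.1% of all genes. Col1a1, Col1a2 and Col3a1, the fibrillar collagens of stroma, averaged 1880, 2688 and 2170 CPM in Ocn-/- and 3031, 3664 and 3182 CPM in Ocn+/-. Col5a1, which regulates the width of these fibrils, was at 515, 475 and 398 CPM against 632, 712 and 751 CPM, a difference of −0.59 (SE 0.123). Col6a2 was at 1051, 938 and 770 CPM against 1278, 1319 and 1504 CPM, a difference of −0.57 (SE 0.129). Col4a1 and Col4a2, of basement membranes, differed less, by −0.23 and −0.23. The list summed to 10140 to 14190 CPM in Ocn-/-, to 15990 to 18630 CPM in Ocn+/-, and to 14750 and 17970 CPM in WT. The median GC content of the list, 55.5%, falls in the highest bin, where 563 of 3263 genes were lower. After the GC offset 4 genes kept an unadjusted p under 0.05, against 3.75% of all genes, the median was −0.34, Col1a1 was at −0.46, Col5a1 at −0.37 and Col4a2 at 0.06, and Col1a1, Col1a2, Col3a1 and Col4a2 had an unadjusted p above 0.05. Stromal cell markers had a median of −0.12, which was −0.30 without Ocn+/- 1 and Ocn+/- 3, −0.19 without Ocn+/- 1 alone and 0.02 without Ocn+/- 2. Without Ocn+/- 1 and Ocn+/- 3 the collagen median was −0.50, and Col1a1, at −0.72, and Col3a1, at −0.53, had an unadjusted p above 0.05.

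Of 29 imprinted genes tested, 22 were lower in Ocn-/-, and 7 lower and 1 higher had an unadjusted p under 0.05, against 6.1% and 5.4% of all genes. Dlk1, a fetal inhibitor of differentiation, was at 799, 679 and 796 CPM in Ocn-/- and 1005, 1062 and 1219 CPM in Ocn+/-, a difference of −0.53 (SE 0.121). Igf2, the fetal growth factor, was at 1072, 1085 and 723 CPM against 1164, 1407 and 1412 CPM, a difference of −0.47 (SE 0.153), and 75.8% of its windows also lie in an overlapping annotated gene. H19 and Meg3, the noncoding partners of Igf2 and Dlk1, differed by −0.38 and −0.50. Peg10 went the other way, at 153, 216 and 188 CPM against 151, 123 and 131 CPM, a difference of 0.46 (SE 0.131). The GC offset gave 9 lower and 2 higher, against 3.75% and 3.94%, and the median went from −0.13 to −0.21, while it was −0.37 without Ocn+/- 1 and Ocn+/- 3. Leaving out 1 library, without the offset, moved the median between −0.23 and −0.06. Igf2 and H19 moved to −0.29 and −0.21 with the offset, both with an unadjusted p above 0.05, and Dlk1 to −0.42. In insulin and IGF signalling 15 of 18 genes were lower, 4 of them at an unadjusted p under 0.05, against 6.1% of all genes, and the hormone Igf1 was at 515, 643 and 440 CPM against 382, 489 and 425 CPM, with overlap. Its difference of 0.30 was 0.12 after the GC offset and 0.13 without Ocn+/- 1 and Ocn+/- 3, both with an unadjusted p above 0.05. With the offset 0 were lower at that threshold.

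In the Hedgehog pathway, by which Sertoli cells signal to Leydig and peritubular cells through Dhh, the ligand was at 0.25 and the receptor Ptch1 at 0.12, neither at an unadjusted p under 0.05. Of 13 genes tested 1 was higher and 4 lower at that threshold, against 5.4% and 6.1% of all genes, with a median of −0.10. Gli2 was at 39.4, 34.5 and 35.0 CPM in Ocn-/- and 53.3, 49.5 and 61.3 CPM in Ocn+/-, a difference of −0.59 (SE 0.133), and Gli1 at 105, 88.6 and 121 CPM against 130, 128 and 125 CPM, a difference of −0.28 (SE 0.12). The coreceptor Boc was at 67.5, 66.0 and 52.3 CPM against 82.1, 86.8 and 100 CPM, and the inhibitor Hhip was higher, at 180, 197 and 172 CPM against 154, 153 and 125 CPM. After the GC offset 2 were higher and 3 lower, against 3.94% and 3.75%, and the median turned to 0.07. Dhh was then at 0.37 with an unadjusted p under 0.05. Of the others Gli2, Gli3 and Boc kept an unadjusted p under 0.05, at −0.41, −0.44 and −0.36, and Gli1 and Hhip did not, at −0.06 and 0.20, nor did they without Ocn+/- 1 and Ocn+/- 3, at −0.28 and 0.26.

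For the lists that follow, the counts at an unadjusted p under 0.05 stand against 5.4% of all genes higher and 6.1% lower. The 19 hormone genes had a median of −0.04 with 4 higher and 2 lower. The 28 tested genes of glycolysis and gluconeogenesis had a median of −0.06 with 2 higher and 2 lower at an unadjusted p under 0.05, and Hk2, hexokinase, was at 170, 150 and 176 CPM against 147, 123 and 121 CPM. The 19 hypoxia targets had 0.06 with 4 higher and 1 lower, and the 21 clock genes −0.05 with 1 higher and 3 lower. Per1, a repressor of the clock and among the lower genes, was at 38.8, 31.6 and 49.4 CPM against 43.8, 53.8 and 52.4 CPM with overlap, a difference of −0.32 (SE 0.15) that was −0.17 after the GC offset, with an unadjusted p above 0.05. The 32 cell division genes had 0.03 with 1 higher and 1 lower, the 24 of cholesterol synthesis −0.05 with 1 and 0, the 29 of cAMP signalling 0.03 with 4 and 1, the 18 of retinoic acid −0.20 with 1 and 1, the 19 of the amino acid response −0.06 with 1 and 2, the 16 interferon-induced −0.14 with 0 and 2, the 16 heat-shock and cold-inducible −0.05 with 0 and 1, the 17 glucocorticoid-induced −0.22 with 0 and 3, and the 13 mitochondrially encoded 0.00 with 0 and 0. The GC offset brought the glucocorticoid-induced list to −0.09 with 1 higher and 0 lower, retinoic acid to −0.04 with 2 and 0, hypoxia targets to 0.12 with 2 and 0, and mitochondrially encoded genes to −0.21 with 0 and 2. Those counts stand against 3.94% of all genes higher and 3.75% lower with the offset. The medians of cell division, heat-shock and cold-inducible, and cholesterol synthesis genes were 0.25, 0.18 and 0.17 without Ocn+/- 1 and Ocn+/- 3. Asns, asparagine synthetase, was at 105, 131 and 140 CPM in Ocn-/- and 90.2, 92.0 and 92.1 CPM in Ocn+/-. The 24 immediate-early genes had 1 higher and 3 lower and a median of −0.35, which was −0.15 after the GC offset, −0.11 without Ocn+/- 3 and 0.06 without Ocn+/- 1 and Ocn+/- 3. Fos was at 73.0 CPM in Ocn+/- 3 and between 3.32 and 5.22 CPM in the 5 other mutant testes, and Fosb at 76.6 CPM against at most 1.40 CPM. Adm, Nppc and Pck1 were at 2.02 to 4.97, 1.78 to 2.96 and 0.255 to 0.632 CPM in Ocn-/- and at 2.66 to 3.91, 1.01 to 1.93 and 0.126 to 0.963 CPM in Ocn+/-.

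**Figure D5:**
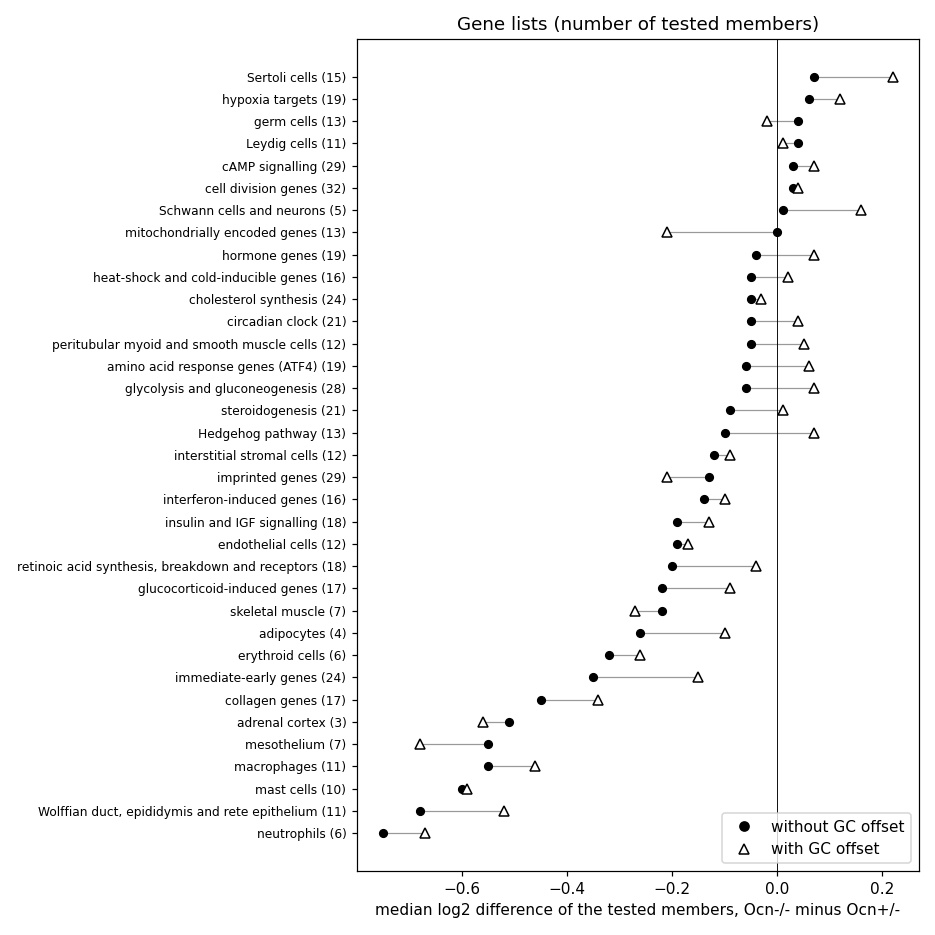
Median log2 difference, Ocn-/- minus Ocn+/-, of the tested members of each gene list, without (filled circles) and with (open triangles) the GC offset. Duct epithelium, mesothelium, macrophage, mast cell, neutrophil and adrenal cortex lists lie below −0.4 in both, while Leydig, Sertoli and germ cell lists lie between −0.02 and 0.22. The mast cell list was made after Tpsab1 had been seen.

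Near the osteocalcin genes on chromosome 3, 95 coding genes within 2 Mb on either side were tested. None was higher and 12 were lower at an unadjusted p under 0.05, against 5.4% and 6.1% of all genes, with a median of −0.13. With the GC offset 2 were higher and 6 lower, against 3.94% and 3.75%, and the median was −0.04. Of the 8 nearest neighbours, Lmna, which encodes the nuclear lamins A and C, was at 57.5, 44.2 and 46.4 CPM in Ocn-/- and 78.9, 62.1 and 98.6 CPM in Ocn+/-, a difference of −0.69 (SE 0.159). The difference was −0.46 after the GC offset and −0.33 without Ocn+/- 1 and Ocn+/- 3, where the unadjusted p was above 0.05. The other 7 (Paqr6, Smg5, Tmem79, Glmp, Pmf1, Slc25a44 and Sema4a) had an unadjusted p above 0.05, with differences between −0.53 and 0.04, though Pmf1 was under it after the GC offset, at −0.33. By chromosome, the largest share of lower genes was on chromosome 17, 87 of 784 or 11.1%, which also has the highest median GC content of the chromosomes, 52.0%, and with the GC offset it was 4.85%.

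Forebrains of the same genotypes allowed a test of whether the contrast differed between the tissues. With 3 libraries a group, a count of 0 in it cannot show that the tissues were alike. The fit took all libraries as independent, and whether testes and forebrains came from the same pups is not given in the sources used here. In a joint fit of the 12 mutant libraries, 0 of 17410 genes (0%) differed between tissues in their Ocn-/- to Ocn+/- contrast after adjustment by edgeR, with 995 at an unadjusted p under 0.05 and a smallest adjusted p of 0.122. In that fit the testis contrast itself had 2 genes past an adjusted p of 0.05, C3 at −1.24 and Smpd3, a sphingomyelinase named after its value was seen, at −1.05. The corresponding differences in forebrain were −0.44 and 0.07. At an unadjusted p under 0.05 the joint fit held 2170 genes in testes, 12.5% of those tested, and 459 in forebrain, or 2.64%.

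Over all tested genes, libraries of different genotype lay slightly further apart than libraries of the same genotype. The mean Euclidean distance on log2 CPM was 75.4 between and 72.0 within genotypes, a difference of 3.39, and an exact one-sided permutation test over the 10 ways to split 6 libraries gave p = 0.1, the smallest it can give. After the GC offset the difference was 1.99 and the exact permutation p was 0.2. The nearest library was of the same genotype for 4 of the 6 and of the other for Ocn-/- 1 and Ocn+/- 2, which were nearest to each other.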

How the data were processed

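RNA from testes was sequenced as polyadenylated mRNA. Per the labels and the study's methods, the authors trimmed reads with Trim Galore 0.6.6, aligned them to GRCm39 with STAR 2.7.8a and deposited RSEM 1.3.3 expected counts for 55359 genes, without normalization. RSEM divides reads among genes that share sequence, and strandedness is not given in the sources used here. Expected counts were rounded. Names and GC content were taken from GENCODE M39, which held 54749 of the identifiers.

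All 8 testes were fitted together in edgeR 4.0.16 (R 4.3.3) with TMM normalization, filterByExpr and the robust quasi-likelihood test, two-sided, with Benjamini-Hochberg adjustment. DESeq2 1.42.0 and limma 3.58.1 gave alternatives. The GC offset was a loess curve per library (span 0.5). Log2 CPM for distances used a prior count of 2. Zeros were bounded at 3 counts per library, for counting error only. Fits were also run on simulated counts, whose outcomes are not reported here. The most named genes were the 12 per direction with the smallest p, coding or lncRNA, at 1 CPM or more and without overlap, and the 6 with the largest difference at 2 CPM or more. Others were receptors, genes the study named, up to 2 per list and direction, 4 neighbours on each side of Bglap, and up to 3 per direction called by an alternative. Further members of lists were named after their values were seen. The members, lists and rules were chosen with earlier results of these data known.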

Additional observations from a re-analysis of the deposited data

How the results depend on the processing

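No gene passed an adjusted p of 0.05 in edgeR's quasi-likelihood test with upper quartile normalization, library size alone, no robust estimation, only the 6 mutant testes or the GC offset, and none passed in limma voom. The count was 252 without a filter on low counts, 70 with DESeq2, 59 with the likelihood ratio test and 3 with at least 10 counts in every testis (Loxl1, Tpsab1 and Tnxb). Leaving out 1 testis gave 0 to 47 genes, with 47 without Ocn+/- 2, and 4 without Ocn+/- 1 and 1 without Ocn-/- 1. At an unadjusted p under 0.05 the leave-one-out counts ran from 930, without Ocn+/- 3, to 2424. Chosen after seeing the data, fits without Ocn+/- 1 and Ocn+/- 3 gave 2 genes after adjustment and 1077 before, and 3 after adjustment with the GC offset. With the replicate number as a block, 1 gene (Zfp1009) passed and 2056 had an unadjusted p under 0.05, and 0 and 1291 with block and GC offset. Deviations of Ocn-/- and Ocn+/- testes of the same number correlated at −0.031, −0.053 and 0.062, and not every testis correlated best with its own number. With 3 libraries a group, these values cannot decide whether the numbers pair the samples. The share of higher genes was 46.9%, and 39.3% with upper quartile normalization. The tissue difference gave 38 genes without a filter and 0 to 8 in leave-one-out fits, the 8 without Ocn+/- 2, and 0 otherwise. The cause of these changes was not tested. The excess of the distance between over that within genotypes was 1.99 to 3.39 over all tested genes. It was 1.82 over the 500 most variable genes and 0.662 over the 500 with the largest mean CPM. Distances over fewer genes are smaller, 7.05 between and 6.39 within for the latter, so these sets are not on one scale. The exact permutation p was 0.1 to 0.3, where 0.1 is the smallest possible. The medians of the mesothelium, duct epithelium, macrophage and collagen lists stayed below 0, the highest being −0.42, −0.36, −0.32 and −0.32, while the Leydig cell median ran from −0.21 to 0.33 and the steroidogenesis median from −0.27 to 0.28. With 3 libraries a group, genes under 10 CPM were measured too loosely to place a difference within 2-fold in many cases.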
